A study of Homo sapiens with 4 samples.

Results

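The genes described here belong to the ubiquitin and proteasome system and carry symbols that begin with UBE2, UBE3, UBR, USP, PSMA, PSMB, PSMC, PSMD, CUL, FBXO, FBXW, TRIM or RNF. For all stems but UBE2 and UBE3, which already end in a digit, a digit had to follow. The RefSeq table of GRCh38.p14 lists 379 such protein-coding genes, and 44 of them overlapped at least 1 peak of the Flag-AKT1 E17K list. These 44 genes held 129 of the 4838 peaks of the list and made up 44 of the 1708 protein-coding genes with a peak. Every one of the 13 stems had at least 1 gene among them. RIP-seq, the sequencing of RNA that comes down with an immunoprecipitated protein, was performed on MDA-MB-231, a breast cancer cell line, transfected with a plasmid for Flag-tagged AKT1 E17K or wild-type AKT1. AKT1 is a growth-signalling kinase, and E17K is an activating mutation of it found in tumors. For each plasmid there was 1 anti-Flag immunoprecipitate and 1 input library, 4 libraries in all, so no value below has a replicate check. Both arms carried an introduced, tagged AKT1 in cells that keep their own AKT1, and an arm without a plasmid was not analysed here. The control counts of the lists were read as the input, as the samples are labelled, although the lists do not name the control and the series description also speaks of control IgG.

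Ubiquitin is a small protein that cells attach to other proteins to change their fate. Conjugating enzymes (E2, the UBE2 family) carry activated ubiquitin, ligases (E3) choose the substrate, and deubiquitinases such as the USP family remove the mark again. Many marked proteins are degraded by the proteasome, in which PSMA and PSMB subunits form the core particle with the proteolytic sites, and PSMC ATPases and PSMD subunits form the regulatory particle that binds and unfolds substrates. Ligases come as single proteins, such as UBE3C and most RNF and TRIM proteins, or as complexes in which a cullin (CUL) is the scaffold and an F-box protein (FBXO, FBXW) binds the substrate.

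Sequencing depth is unknown, as totals per library are not in the lists, and only reads inside peaks were used. The Flag-AKT1 E17K list held 484463 immunoprecipitate and 248412 input reads, and AKT1 itself, which the plasmid carries, took 15.1% of the former. The 129 peaks held 2.18% of the immunoprecipitate and 2.08% of the input reads. They had a median of 45 immunoprecipitate reads, with 11 in the lowest and 903 in the highest, compared to a median of 39 over the list. The ratio of a gene is its immunoprecipitate reads over its input reads, summed over its peaks and not scaled for library size, so that only differences between genes of 1 list can be read from it. Intervals are 95% Wilson intervals of the read shares and cover counting error only, since PCR reads without molecular identifiers are not independent molecules. Peak labels and gene strands were opposite in 95.9% of the 3534 pairs of a peak and a gene with a known strand, and in all 76 such pairs of the 31 ubiquitin and proteasome genes with a known strand. Of 14 marker genes of mesenchymal-like breast cancer cells 9 held a peak, among them VIM with 2032 immunoprecipitate and 1083 input reads, and none of 12 luminal markers did. A missing peak is no measurement of a gene, since the list covers chromosomes unevenly.

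Proteasome genes held peaks more often than the other families. A peak was found at 14 of 40 genes with a PSMA, PSMB, PSMC or PSMD symbol, called proteasome subunits here (35.0%, interval 22.1% to 50.5%). The share of all 20052 protein-coding genes was 8.52% (interval 8.14% to 8.91%). Among the conjugating enzymes 7 of 36 genes held a peak (19.4%, interval 9.75% to 35.0%), and among ligases and ligase subunits 21 of 226 (9.29%, interval 6.16% to 13.8%). The deubiquitinases had the fewest, with 2 of 77 (2.60%, interval 0.715% to 8.98%). The list has 0 peaks on chromosomes 3, 4, 12, 13, X and Y, where 82 of the 379 genes lie. These include 36 of the 77 USP genes, because 19 copies of the repeated USP17L genes lie on chromosome 4. On the remaining chromosomes the shares were 38.9% for proteasome subunits, 25.0% for conjugating enzymes, 10.9% for ligases and 4.88% for deubiquitinases, with 10.7% for all protein-coding genes. The order of the families was the same with and without these chromosomes. The chromosomes with peaks were also covered unevenly. For example, chromosomes 2, 5, 9 and 20 held plus labels only, and chromosome 10 held minus labels only. Chromosomes 14 and 18 held 5 and 6 peaks. The shares were not corrected for this, and its part in the differences between families was not tested. These shares are a description, and no test was made over the families.

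**Figure D1:**
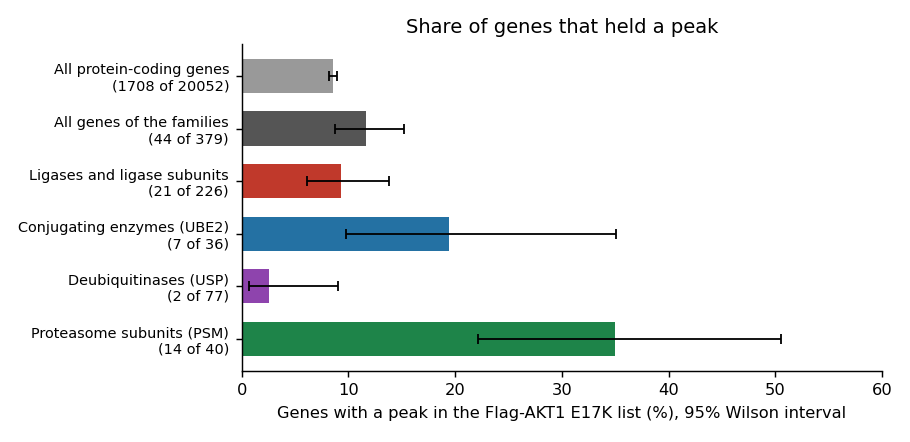
Percentage of genes (x axis) with at least 1 peak in the Flag-AKT1 E17K list for all protein-coding genes, all genes of the families and each family (y axis, with the number of genes), with 95% Wilson intervals as error bars. Proteasome subunits reached 35.0% and deubiquitinases 2.60%, on either side of the 8.52% of all protein-coding genes.

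Within the proteasome, 5 of 19 PSMA and PSMB genes (core particle) and 9 of 21 PSMC and PSMD genes (regulatory particle) had a peak. Genes were counted by symbol, so the 21 include genes that are not subunits, such as the chaperone PSMD10. The core genes were PSMA1, PSMA2, PSMB4, PSMB6 and PSMB7. The regulatory genes were the ATPases PSMC2, PSMC3, PSMC4 and PSMC5 and the subunits PSMD3, PSMD4, PSMD8, PSMD11 and PSMD13. PSMC genes had the highest share of any stem, 4 of 7. Counted per kilobase of peak, the proteasome genes were also read more densely than most genes. Their median density was 231 immunoprecipitate reads and 109 input reads per kb, compared to 112 and 53.7 over all genes with a peak. All 14 proteasome genes lay above the median of all genes in the immunoprecipitate and 12 of them in the input. PSMB7, a core particle subunit with proteolytic activity, had the highest density of all 44 genes, with 527 immunoprecipitate and 260 input reads per kb. PSMD8 followed with 425 and 250, and PSMC4 with 417 and 207 reads per kb. The ligases had a median density of 73.2 immunoprecipitate and 37.9 input reads per kb, and 7 of 21 lay above the median of all genes in the immunoprecipitate. TRIM28, a transcriptional corepressor of the TRIM family, was the densest ligase gene with 390 and 225 reads per kb. Conjugating enzymes had medians of 89.0 and 42.0 reads per kb, and the deubiquitinases, with 2 genes only, 99.2 and 52.0. The high density of the proteasome genes was thus found in both libraries.

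**Figure D2:**
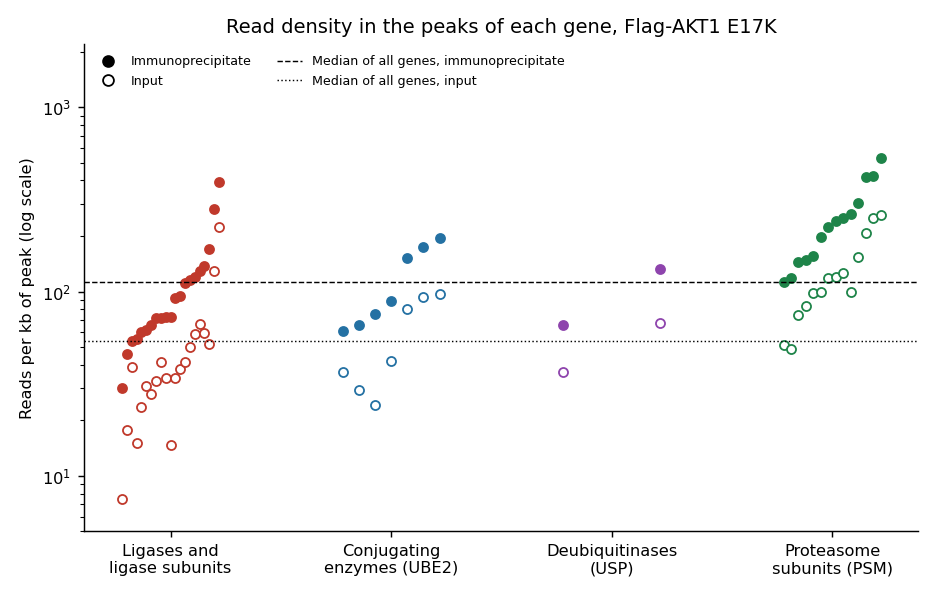
Reads per kb of peak (y axis, log scale) of each gene in the Flag-AKT1 E17K list by family (x axis), with filled circles for the immunoprecipitate and open circles for the input, ordered within a family by the former. All 14 proteasome subunits lie above the median of all genes in the immunoprecipitate (dashed line, 112 reads per kb), and the dotted line marks the median of all genes in the input, 53.7.

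The ratio of the ubiquitin and proteasome genes lay close to that of the list. Their median ratio was 2.03 (quartiles 1.93 and 2.45), and that of all 1708 genes was 2.14 (quartiles 1.91 and 2.47). Of the 44 genes, 20 lay above the median of all genes, and the intervals of 37 included it. Summed over the genes, with each peak counted once, 10583 immunoprecipitate and 5160 input reads gave a ratio of 2.05 (interval 1.98 to 2.12). By family, the summed reads gave 2.14 for ligases (interval 2.04 to 2.25), 2.12 for conjugating enzymes (interval 1.88 to 2.40), 1.90 for deubiquitinases (interval 1.46 to 2.48) and 1.96 for proteasome subunits (interval 1.87 to 2.06). The medians of the genes were 2.31, 2.03, 1.88 and 1.98 in the same order. Genes above the median of all genes numbered 15 of 21 ligases, 2 of 7 conjugating enzymes, 0 of 2 deubiquitinases and 3 of 14 proteasome subunits. Most ligases thus lay above and most proteasome subunits below the median of all genes. The ratio of all reads of the list was 1.95, or 2.06 without AKT1. The interval of the proteasome subunits included 1.95, while those of the ligases and of all 44 genes lay above it. Both of the latter included 2.06, which lay at the upper end of the interval of the proteasome subunits. No p-value was calculated for a family, whose genes share the same 2 libraries.

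**Figure D3:**
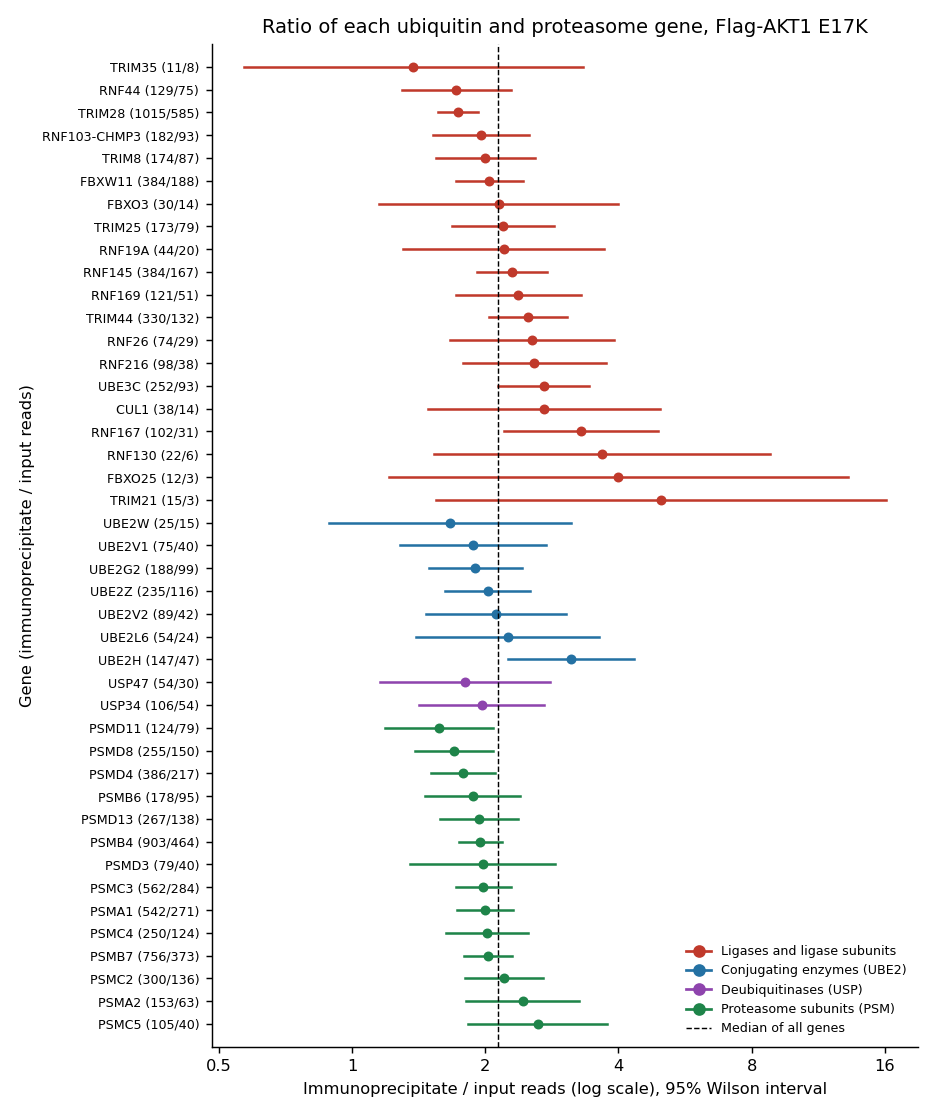
Ratio of immunoprecipitate to input reads (x axis, log scale) of the genes (y axis, with both read numbers) in the Flag-AKT1 E17K list, grouped by family and ordered by ratio, with 95% Wilson intervals. The values of 1 gene are not shown. The intervals of TRIM28, PSMD4, PSMD8 and PSMD11 lie below the median of all genes (dashed line, 2.14), that of PSMD8 only with a peak mostly outside its span, and those of UBE2H, RNF167 and UBE3C above it.

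Proteasome subunits had ratios within a narrow range, from 1.57 for PSMD11 to 2.63 for PSMC5. The subunit with the most reads, PSMB4 of the core particle, held 903 immunoprecipitate and 464 input reads in 1 peak on chromosome 1 from 151400001 to 151403000, a ratio of 1.95. This peak also lies in the span of POGZ, but its minus label is opposite to the plus strand of PSMB4, as at nearly all genes of the list. PSMB7 held 756 and 373 reads in 4 peaks (ratio 2.03). These core subunits lay just below the median of all genes. The ATPase PSMC3 held 562 and 284 reads in 6 peaks on chromosome 11, with a ratio of 1.98 and peak ratios from 1.50 to 2.50. PSMA1, which belongs to the outer ring of the core particle, held 542 and 271 reads in 7 peaks on the same chromosome, with a ratio of 2.0 and peak ratios from 1.75 to 2.80. PSMA2 had 153 and 63 reads over 5 peaks (ratio 2.43), and its peaks ran from 1.21, on 17 and 14 reads, to 8.33, on 25 and 3 reads. The interval of the latter peak, 2.68 to 25.9, was wide and lay above the ratio of the whole gene. The ATPase PSMC5 held 105 and 40 reads in 1 peak (ratio 2.63, interval 1.83 to 3.77), and PSMC2, whose 4 peaks also lie in the span of SLC26A5, held 300 and 136 (ratio 2.21).

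Of the proteasome stems, PSMD had the lowest ratio when reads were summed, although not each of its genes was among the lowest. PSMD11 held 124 immunoprecipitate and 79 input reads (ratio 1.57, interval 1.18 to 2.08). PSMD8 held 255 and 150 reads in 2 peaks (ratio 1.70, interval 1.39 to 2.08), of which 1, with 69 and 56 reads, lies mostly outside the gene span. With at least 50% of a peak required in the span, PSMD8 held 186 and 94 reads (ratio 1.98, interval 1.55 to 2.53), and that interval includes 2.14. PSMD4, a subunit that binds ubiquitin chains, held 386 and 217 reads (ratio 1.78, interval 1.51 to 2.10). Among the genes with at least 50 reads these are 3 of the 5 lowest ratios, but PSMD8 is no longer one of them under the stricter overlap, and only the intervals of PSMD11 and PSMD4 lay below 2.14 under both overlaps. PSMD13 and PSMD3 followed with ratios of 1.93 and 1.98, so that all 5 PSMD genes lay below the median of all genes. Summed over the PSMD genes, 1111 and 624 reads gave 1.78 (interval 1.61 to 1.96), or 1.83 (interval 1.66 to 2.03) under the stricter overlap, and 1217 and 584 reads of the 4 PSMC genes gave 2.08 (interval 1.89 to 2.30). No test was made between these stems, and none of the PSMD genes passed the test of single genes given below.

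Among the conjugating enzymes UBE2H stood highest. UBE2H, an E2 of the ubiquitin pathway, held 147 immunoprecipitate and 47 input reads in 4 peaks on chromosome 7 between 129831191 and 129839360. Its ratio was 3.13 (interval 2.26 to 4.34), at the percentile 90.2 of all genes, and the 4 peaks had similar ratios from 2.94 to 3.38. UBE2Z, which had the most reads of the family, held 235 and 116 reads in 1 peak (ratio 2.03). UBE2G2, an E2 of endoplasmic reticulum-associated degradation, held 188 and 99 reads (ratio 1.90). The E2 variants UBE2V1 and UBE2V2, which lack the catalytic cysteine, had 75 and 40 reads (ratio 1.88) and 89 and 42 reads (ratio 2.12), and the UBE2V1 peak also lies in the read-through gene PEDS1-UBE2V1. UBE2L6, the E2 of the ubiquitin-like protein ISG15, and UBE2W had 54 and 25 immunoprecipitate reads, with ratios of 2.25 and 1.67. Apart from UBE2H, the intervals of all conjugating enzymes included the median of all genes.

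The ligases held the widest spread of ratios. TRIM28 held 1015 immunoprecipitate and 585 input reads in 2 peaks on chromosome 19. Its ratio was 1.74 (interval 1.57 to 1.92), at the percentile 12.3 of all genes, and lay below the median of all genes. UBE3C, a HECT ligase that associates with the proteasome, held 252 and 93 reads (ratio 2.71, interval 2.14 to 3.44), and its 2 peaks on chromosome 7 had ratios of 2.80 and 2.68. TRIM44, a TRIM protein without the RING domain of the family, held 330 and 132 reads in 3 peaks (ratio 2.50, interval 2.04 to 3.06), with peak ratios from 2.38 to 2.86. The lysosomal RING ligase RNF167 held 102 and 31 reads in 1 peak on chromosome 17 from 4944601 to 4945200 (ratio 3.29, interval 2.21 to 4.91). UBE3C, TRIM44 and RNF167 stood above the median of all genes, and in UBE3C and TRIM44 all peaks did so.

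Other ligases with many reads were close to the list. FBXW11, an F-box protein that recognises phosphorylated substrates, held 384 and 188 reads in 7 peaks on chromosome 5 (ratio 2.04). RNF145, a ligase of the endoplasmic reticulum, held 384 and 167 reads in 7 peaks on the same chromosome (ratio 2.30). The neighbouring pair of its peaks between 159157601 and 159159000, with 24 and 243 immunoprecipitate reads, had ratios of 2.0 and 2.01. The other 5 ran from 2.75 to 4.11 on 14 to 37 reads. Their intervals all overlapped with that of the deepest peak, 1.62 to 2.50. RNF44 held 129 and 75 reads and was among the lowest, with a ratio of 1.72 (interval 1.30 to 2.28). CUL1, the scaffold of the SCF ligases, held 38 and 14 reads in 1 peak (ratio 2.71, interval 1.48 to 4.96), and FBXO3 held 30 and 14 in 2 peaks (ratio 2.14). RNF169, RNF19A, RNF216, RNF26, TRIM25 and TRIM8 had between 44 and 174 immunoprecipitate reads and ratios from 2.0 to 2.58. The read-through gene RNF103-CHMP3 was counted through 1 peak that also lies in CHMP3, and RNF103 itself had no peak. Ratios of at least 4 were found for 2 genes, TRIM21 with 15 and 3 reads (ratio 5.00, interval 1.55 to 16.1) and FBXO25 with 12 and 3 reads (ratio 4.00, interval 1.21 to 13.2). Over the list 4.45% of genes reached that ratio. The lowest ratio of the 44 genes, 1.38, was also found on few reads, 11 and 8 at TRIM35, and RNF130 had 22 and 6 (ratio 3.67). Both deubiquitinases lay below the median of all genes. USP34, a very large deubiquitinase linked to Wnt signalling, held 106 and 54 reads in 2 peaks on chromosome 2 (ratio 1.96, interval 1.42 to 2.72), and USP47 held 54 and 30 reads (ratio 1.80, interval 1.16 to 2.80).

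Ratios depended on the number of reads in the list as a whole. Among all genes, the median ratio was 2.76 for genes with up to 50 reads of both libraries together, 2.25 for 51 to 100, 2.18 for 101 to 200, 2.08 for 201 to 400 and 2.05 above 400. No peak of the list had fewer than 11 immunoprecipitate reads, and the part of that limit in the high ratios of low genes was not tested. Above 400 reads, the 8 proteasome subunits had a median of 1.96 and the 5 ligases one of 2.30. Between 201 and 400 reads, 4 proteasome subunits had a median of 1.94 and 5 ligases one of 2.0. In these ranges the proteasome subunits lay somewhat below all genes, and the ligases above all genes in the first and below them in the second. The ligases also lay above all genes at fewer reads, with medians of 2.57 for 4 genes with 101 to 200 reads, 2.46 for 2 with 51 to 100 and 3.67 for 5 with up to 50. The other 2 subunits, PSMD3 and PSMC5, had 101 to 200 reads and ratios of 1.98 and 2.63.

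**Figure D4:**
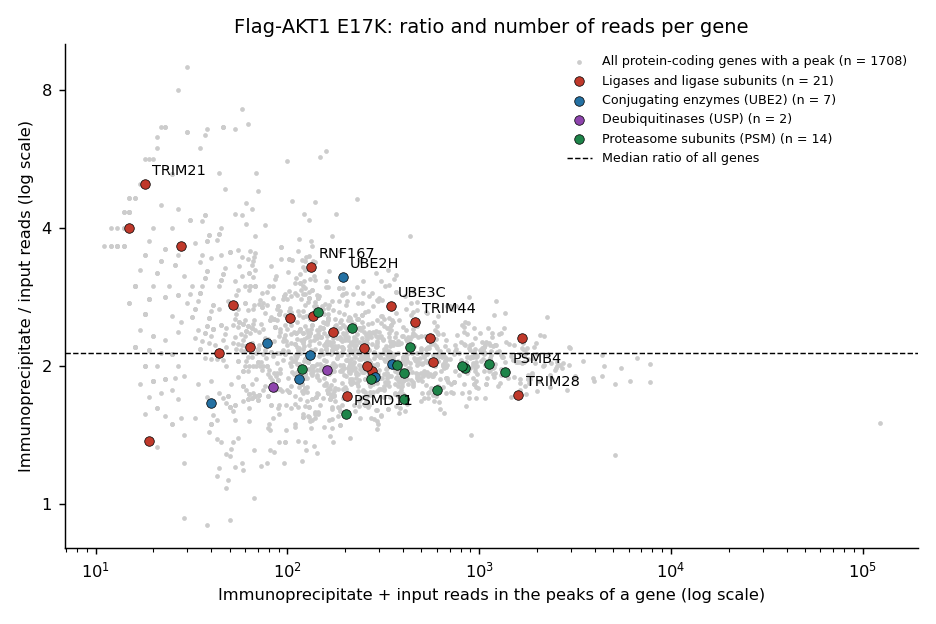
Ratio of immunoprecipitate to input reads (y axis, log scale) against the sum of both (x axis, log scale) for the 1708 protein-coding genes with a peak in the Flag-AKT1 E17K list (grey) and the 44 ubiquitin and proteasome genes (colored by family). Ratios of genes with few reads spread widely, and above 400 reads the 13 ubiquitin and proteasome genes ran from 1.70 to 2.50 (dashed line: median of all genes, 2.14).

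For single genes, a two-sided Fisher's exact test set the reads of each gene against those of all other peaks of the list, with p-values adjusted over the 1708 genes (Benjamini-Hochberg). The test compares 2 libraries and not conditions. At an adjusted p under 0.05, none of the 44 genes differed from the other peaks in either direction, while 2.75% of all genes had more and 0.176% had fewer. At an unadjusted p under 0.05 there were 6 of the 44 genes, 5 with more and 1 with fewer, a share close to the 14.3% of all genes. Among these, the adjusted p (Fisher's exact test) was 0.0913 for UBE2H, 0.118 for UBE3C, 0.161 for RNF167 and 0.194 for TRIM44, all with more reads, and 0.240 for TRIM28, with fewer. Of the 129 single peaks, 0 passed in the same test over all 4838 peaks, in which 0.269% did, and 10 had an unadjusted p under 0.05, as did 8.78% of all peaks. AKT1 alone holds a large share of the reads at a low ratio, and without its peaks the adjusted p of TRIM28 was 0.0530 (Fisher's exact test). It rose to 0.222 for UBE2H, 0.290 for UBE3C, 0.263 for RNF167 and 0.449 for TRIM44 in the same test without AKT1. Against the median ratio of all genes (two-sided exact binomial test), the adjusted p was 0.00715 for TRIM28, which was the only 1 of the 44 genes past the threshold there. Of all genes, 1.29% had fewer reads in that test. The adjusted p of UBE2H, UBE3C, RNF167 and TRIM44 was 0.268, 0.347, 0.300 and 0.570 in the exact binomial test.

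The pathway has many genes outside these 13 stems. Of a list of 112 further genes of ubiquitin, ubiquitin-like and proteasome function, 27 had a peak in the Flag-AKT1 E17K list. Over all protein-coding genes this share was 8.52%. The median ratio of the 27 genes was 2.24. Fisher's exact test called 1 of them with more immunoprecipitate reads and 0 with fewer, compared to 2.75% and 0.176% of all genes. An unadjusted p under 0.05 was found for 5 of the 27, compared to 14.3% of all genes. The gene called was PSME4, which encodes the proteasome activator PA200, with 256 immunoprecipitate and 79 input reads in 2 peaks (ratio 3.24, interval 2.52 to 4.17). Its adjusted p was 0.00472 in Fisher's exact test, 0.0280 without the AKT1 peaks and 0.0473 in the exact binomial test against the median ratio. Its ratio was above that of each of the 14 proteasome subunits, although the intervals of PSMC5, PSMA2, PSMD3 and PSMC2 overlapped with that of PSME4. Outside both this list and the 13 stems, the ligase gene TRIP12, named after its values were seen, also passed, with 789 and 326 reads (ratio 2.42, adjusted p 0.0365 in Fisher's exact test). It did not pass without the AKT1 peaks (0.227) or in the exact binomial test (0.378). PSME3, another proteasome activator, held 173 and 81 reads (ratio 2.14). SMURF1, a HECT ligase of the TGF-beta pathway, held 380 and 145 reads in 14 peaks (ratio 2.62, adjusted p 0.0658 in Fisher's exact test). The adaptor SKP1, which links CUL1 to F-box proteins, held 583 and 246 reads (ratio 2.37, adjusted p 0.161 in Fisher's exact test). Without the AKT1 peaks the adjusted p was 0.227 for SMURF1 and 0.461 for SKP1 (Fisher's exact test). DDB1, the adaptor of CUL4 ligases, held the most immunoprecipitate reads of this list, with 1501 and 832 reads in 18 peaks (ratio 1.80), and VCP, the segregase that extracts ubiquitylated proteins, held 1065 and 567 (ratio 1.88). SKP1 thus lay above the list's median, and DDB1 and VCP below it.

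The Flag-AKT1 WT list held peaks at 5 of the 379 genes, CUL4B, FBXO8, PSMD10, RNF113A and UBE2D3, and none of these is among the 44 genes of the Flag-AKT1 E17K list. All 5 lie on chromosomes 4 and X, which hold 459 and 252 of the 808 peaks of this list and 0 of the other. These 5 genes could therefore not be shared. For the 44 genes the chromosomes did not fix this in every case. UBE2G2, for example, lies on chromosome 21, which holds 85 peaks of the E17K plasmid and 31 of the wild-type plasmid. However, the peak of UBE2G2 has a plus label, as have 52 of these 85 but only 2 of these 31. Why such genes had no wild-type peak was not tested. None of the 5 or the 44 genes has counts for both plasmids, so the lists give no comparison of the plasmids for them. UBE2D3, an E2 that works with many RING ligases, held 463 immunoprecipitate and 547 input reads in 6 peaks (ratio 0.846). PSMD10, the regulatory particle chaperone gankyrin, held 71 and 80 reads (ratio 0.887), and CUL4B, a cullin scaffold, held 56 and 61 (ratio 0.918). FBXO8 held 37 and 44 reads (ratio 0.841), and RNF113A held 12 and 25 (ratio 0.480, interval 0.244 to 0.943). All 5 lay below the median of the 273 genes of this list, 0.950. The test over the 273 genes called 0 of the 5, while 4.76% of all genes passed, and the adjusted p was 0.179 for UBE2D3 and 0.271 for RNF113A (Fisher's exact test). At an unadjusted p under 0.05 these were 2 of the 5, compared to 17.6% of all genes of this list. Within UBE2D3 the deepest peak, on chromosome 4 from 102794791 to 102797455, held 270 and 349 reads (ratio 0.774), and the peak from 102801351 to 102801555, with 30 and 13 reads, had a ratio of 2.31 (interval 1.22 to 4.38).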

How the data were processed

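The authors deposited 1 peak list per plasmid with positions, a strand label and whole-number read counts of the immunoprecipitate and a control, without normalization. The lists also hold reads per kilobase, log odds scores, p-values and empirical false discovery rates, which were not used. The submitters' processing notes name Bowtie2 2.2.8 and hg18. The peak positions overlapped protein-coding spans of GRCh38.p14 for 97.3% (Flag-AKT1 E17K) and 96.7% (Flag-AKT1 WT) of peaks, against 48.6% and 43.8% when moved by 1000000 bp, and were read in that build. The peak caller and its filters are not given in the sources used here. 

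A peak counted for every protein-coding gene with which it shared 1 bp or more of the span from start to end, on either strand, and counts were summed per gene. The table has no exons, so exonic and intronic reads were not separated. Genes with pseudogenes or near-identical copies may share reads, which leaves their counts uncertain. In ratios, an input below 3 reads was set to 3. Fisher's exact tests and Wilson intervals were calculated with Python 3.11.15 and scipy 1.17.1, with matplotlib 3.10.9 for plots. The test was checked on simulated data with independent reads, so the check does not cover reads that are not independent molecules. Library totals are unknown, so the rest of the list served as the reference.

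The genes, families, gene lists and tests were chosen with earlier results of these data known. The genes named in full were the 10 with the most immunoprecipitate reads, the 5 highest and 5 lowest ratios among genes with at least 50 reads, the gene with the most reads of each stem, any gene past the test and all genes of the rule in the Flag-AKT1 WT list, and others were named after their values were seen. The alternatives were other overlap, strand and read-number rules, another reading of the gene rule, the exact binomial test, a stricter threshold, and leaving out AKT1 or the gene with the most reads. Keeping only peaks labelled opposite to the gene and leaving out read-through genes were added after seeing the data. The values of 1 gene are not reported here, although its reads are part of the sums, medians and counts.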

Additional observations from a re-analysis of the deposited data

How the results depend on the processing

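With peaks in 1 protein-coding span only, or genes with at least 30 reads only, 1 of the 44 genes had more immunoprecipitate reads in place of 0, as had 2.96% and 3.12% of all genes. In the exact binomial test 1 gene, TRIM28, had fewer in place of 0, as had 1.29% of all genes. Genes of at least 4-fold were 1 in place of 2 with 1 added to both counts, and 0 with at least 30 reads. With peaks labelled like the gene's strand, 0 genes (0%) were left, and with peaks labelled opposite to it 8.18% of the 379 genes held a peak, because genes without a known strand drop out by construction. The ratio of the ligases was then 2.31, and it was also 2.31 as a median of the genes, in place of 2.14, for which the cause was not tested. The other 54 values at group level and 107 at gene level kept their call, stayed within their interval or, for counts of genes, changed moderately. For example, in place of 44 genes with a peak there were 40 with peaks in 1 protein-coding span only. There were 36 when UBE2 and UBE3 also needed a further digit, and 31 with peaks labelled opposite to the gene. No paired analysis was possible because each group held 1 library, and leaving out a replicate was not possible either. Library totals are unknown, so no ratio above or below 1 can be read as enrichment, and for genes with few input reads a difference was not detectable at this depth.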
